A study of Gallus gallus with 6 samples.

Results

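Hesx1 encodes a homeobox transcription factor that represses transcription and is best known for its role in the anterior neural plate, the pituitary and the placodes, the thickenings of the head ectoderm that give rise to sense organs and cranial ganglia. Acetylation of lysine 27 on histone H3 (H3K27ac) lies on the nucleosomes that flank active enhancers and promoters, so that an enhancer often appears as a gap between acetylated peaks. Trimethylation of the same lysine (H3K27me3) is laid down by Polycomb complexes on silenced genes, and as a lysine cannot carry both groups the marks exclude each other on a single histone tail. FGF signalling turns pre-placodal cells into otic-epibranchial progenitors (OEPs), the common precursors of the inner ear and the epibranchial ganglia.

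The chromatin around Hesx1 was examined over 601 kb of chromosome 12 (galGal4, chr12:8276000-8877000), which reaches 300 kb to each side of Hesx1-E, a 515 bp element that the study cloned for enhancer reporters (chr12:8576366-8576880). All intervals of the deposited lists of peaks, putative enhancers and conserved regions that touch this window were taken, 82 of 238275 over the whole series. In both numbers overlapping conserved entries are joined, and peaks with rounded positions and the list of predicted AP1 sites are left out. The first group (FGF2) is posterior pre-placodal ectoderm of HH6 chick embryos grown for 6 h with FGF2 at 0.25 ng/µl, and the second (control) is the same tissue grown for the same time in the same medium without FGF2. About 100 explants were pooled in each condition, no genetic change was made, and all tissue was explanted and cultured, so no uncultured tissue stands beside the pools. Nano-ChIP-seq, chromatin immunoprecipitation scaled down for few cells, gave 1 library per condition and mark. The lists hold positions only. With 1 library on each side no difference can be set against a replicate spread, no test was made, and every value describes these libraries. A tissue check by expressed marker genes is not possible with histone marks alone, and fewer marked cells cannot be told apart from less mark per cell.

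Hesx1-E itself is identified by the primers with which it was amplified, which are shown because they fix the ends of the element on which the results turn. Both are written 5′ to 3′ in lower case. The forward primer has 26 bases with 10 G or C, and the reverse primer has 21 bases with 10 G or C.
Hesx1-E forward: caactgctttctataatgtgtaccag
Hesx1-E reverse: gcgtttgattatcgtgctgtc
The sequence between the primers was not analysed here. In the order of RefSeq genes on a later chick assembly (GRCg7b, used for names and order only), HESX1 stands between IL17RD, whose product Sef antagonises FGF receptor signalling, and APPL1, an endosomal adaptor protein. Beyond IL17RD come ARHGEF3, FAM208A and CCDC66. Beyond APPL1 come ASB14, DNAH12, PDE12 and ARF4. Which of the marked regions belongs to which of these genes was not analysed here, because no annotation of galGal4 was used.

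In FGF2-treated tissue the Hesx1 window held few H3K27me3 peaks, at a point where most of the genome held more of them than in control. Peaks were called by the authors with Homer, whose peaks here are 751 bp wide, and with MACS2, whose peaks vary in width. By Homer there were 4 H3K27me3 peaks in FGF2-treated tissue and 8 in control, covering 3004 and 6008 bp. By MACS2 there were 0 in FGF2-treated tissue and 1 of 359 bp in control, which overlapped none of FGF2-treated tissue (40% of the control MACS2 list and 97.3% of the FGF2 list overlapped none of the other). Over all chromosomes the Homer list counted 32518 H3K27me3 peaks in FGF2-treated tissue and 20827 in control, a ratio of 1.56, and on chromosome 12 alone it counted 521 and 368, a ratio of 1.42. The ratio in the window was 0.50.

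To place these counts, the chromosomes, with the Hesx1 locus included, were divided from their starts into 1653 windows as long as the Hesx1 window. Only 10.6% of them had fewer H3K27me3 Homer peaks in FGF2-treated tissue than in control, and 2.96% had a difference of 4 or more in that direction. The median difference was 6, with more peaks in FGF2-treated tissue in 84.8% of windows. In FGF2-treated tissue the median window held 17 such peaks, and only 17 windows (1.03%) held 4 or fewer. Of these, 1 lies among the 33 windows of chromosome 12. It overlaps the left end of the Hesx1 window and held 3 H3K27me3 Homer peaks in FGF2-treated tissue and 7 in control. The next window, which holds most of the Hesx1 window, held 6 and 12. The shares of windows thus count the locus itself, and few such peaks were also seen to its left. Of the 17, 6 held at least as many H3K27ac peaks as the 14 of the Hesx1 window. In control the count of 8 was ordinary, with 30.2% of windows at or below it and a median of 11. The MACS2 list of FGF2-treated tissue has at least 1 H3K27me3 peak in all but 4 of 1397 windows (0.286%), and there the Hesx1 window has 0. MACS2 called only 923 placeable H3K27me3 peaks in control against 21873 over the same sequence in FGF2-treated tissue, and 99.7% of windows had more of them in FGF2-treated tissue and 0% had fewer. The 0 and 1 peaks in the window centred on Hesx1-E run the other way. The windows of the tiling did not show this. All 33 on chromosome 12, with those over the Hesx1 locus, held at least 2 H3K27me3 peaks by MACS2 in FGF2-treated tissue. The 0 therefore depends on where the edges of the window lie.

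**Figure D1:**
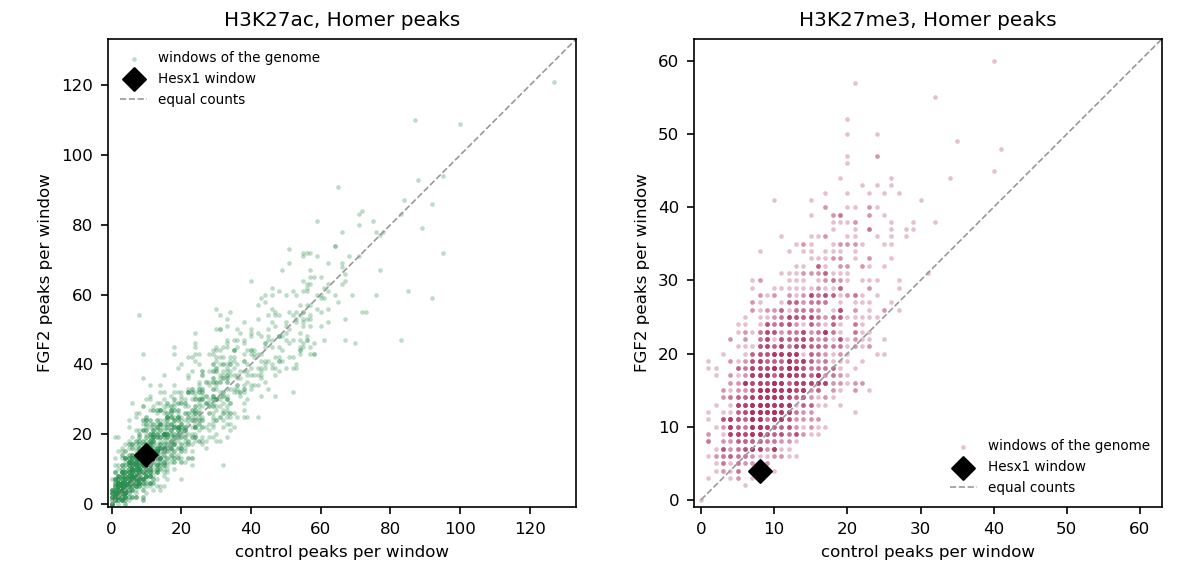
Each point is 1 of 1653 windows of the genome as long as the Hesx1 window, with the number of Homer peaks in FGF2-treated tissue on the vertical and in control on the horizontal axis, for H3K27ac (left) and H3K27me3 (right). The black diamond is the Hesx1 window, with 14 FGF2 and 10 control H3K27ac peaks, inside the cloud, and with 4 FGF2 and 8 control H3K27me3 peaks, at its lower edge and below the dashed line of equal counts.

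The stretch without H3K27me3 around Hesx1-E was long in both conditions. By MACS2 no H3K27me3 peak of FGF2-treated tissue lay between 8213282 and 8881434, a stretch of 668 kb that takes in the whole window. Stretches between neighbouring peaks of that list had a median of 21.4 kb, and 9 of 19384 (0.0464%) were as long, 1 of them on chromosome 12, which is the one that holds Hesx1-E. The control MACS2 list is so short that its stretch was longer still, 1728 kb (6989756 to 8717502), but 17.3% of its stretches were as long and their median was 377 kb. By Homer the stretch ran from 8463264 to 8662040 in FGF2-treated tissue (199 kb, with 0.845% of stretches as long and a median of 18.9 kb), and from 8491193 to 8683312 in control (192 kb, with 3.57% as long and a median of 30.5 kb). The nearest H3K27me3 peak by Homer was 85.2 kb from the element in either condition, on opposite sides of it. Absence of a peak is not absence of the mark, and gaps of the assembly or sequence where reads do not align uniquely are counted as free. Their part in these lengths was not tested. The shares count stretches and not sequence. Long stretches take up more of the genome, so a given point lies in one more often than these shares say.

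**Figure D2:**
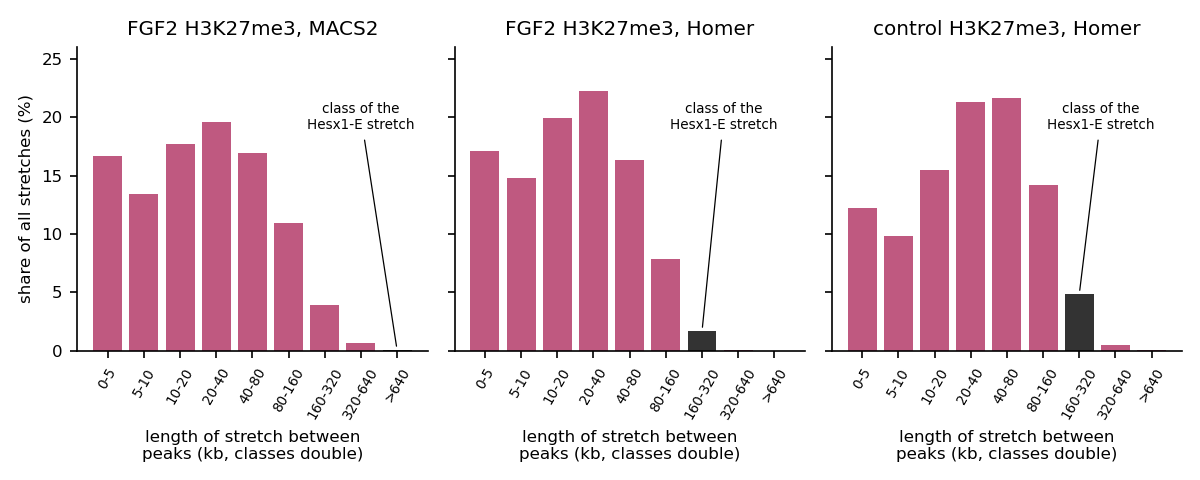
Bars give the share of all stretches between neighbouring H3K27me3 peaks, in percent, by the length of the stretch in classes that double in kb, for FGF2-treated tissue by MACS2 (left) and by Homer (middle) and for control by Homer (right). The black bar is the class that holds Hesx1-E, which is the last class by MACS2 in FGF2-treated tissue (668 kb) and the class of 160 to 320 kb by Homer (199 kb in FGF2-treated tissue and 192 kb in control). Control by MACS2, with 923 peaks, is not drawn.

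Like most peaks of the whole lists, the 12 Homer H3K27me3 peaks of the window did not share a position between conditions. None of the 4 peaks of FGF2-treated tissue overlapped a control peak (background over the whole list 86.5%), and none of the 8 control peaks overlapped one of FGF2-treated tissue (78.9%). The FGF2 peaks lay at 8462513-8463263, 8662041-8662791, 8732888-8733638 and 8838069-8838819. The control peaks lay at 8447421-8448171, 8479035-8479785, 8490442-8491192, 8683313-8684063, 8709324-8710074, 8717337-8718087, 8782207-8782957 and 8848878-8849628. The smallest distance between an FGF2 and a control peak was 10.1 kb. MACS2 called none of the 4 FGF2 peaks, where it called 47.2% over the whole Homer list, and 1 of the 8 control peaks (8717503-8717861), where it called 4.81%. In the Homer list of control, 2 of the 8 stood near the top, at 6.97% (8490442-8491192) and 17.0% (8717337-8718087) of the way down, whereas the 4 of FGF2-treated tissue stood between 68.5 and 92.5% of the way down theirs. What orders these lists is not stated. Between the first and the last of 10 equal parts of the H3K27me3 lists, the share of peaks that MACS2 also called was 84.7 and 8.34% in FGF2-treated tissue, and 20.5 and 0.173% in control, where even early peaks were mostly called by Homer alone, as 8490442-8491192 was.

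Over the window as a whole the callers gave H3K27ac differences in opposite directions. Homer called 14 peaks in FGF2-treated tissue and 10 in control, and MACS2 called 12 in FGF2-treated tissue and 14 in control. The sequence covered by either caller was 24.9 kb in FGF2-treated tissue and 24.6 kb in control. The Homer difference of 4 is reached or passed by 41.3% of the windows, with a median of 2, and 64.9% of windows had more and 27.8% fewer peaks in FGF2-treated tissue. By MACS2 14.5% of windows had more and 79.4% fewer peaks in FGF2-treated tissue, and the median difference was -5, so the -2 at Hesx1 was smaller than in most. The counts in FGF2-treated tissue were near the middle of the genome's, with 43.7% of windows at or below 14 by Homer and 50.3% at or below 12 by MACS2. On chromosome 12, which is rich in peaks, 3 of 33 windows held 14 or fewer Homer peaks in FGF2-treated tissue, and 3 of 33 held 10 or fewer in control.

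What differed was where the H3K27ac peaks stood. They fell into 3 places, a cluster beside Hesx1-E, a large cluster 250 to 300 kb to its right, and single peaks elsewhere. Within 20 kb of the centre of Hesx1-E Homer called 4 peaks in FGF2-treated tissue and 0 in control, and MACS2 called 3 in FGF2-treated tissue and 1 in control. In the right cluster Homer called 7 in FGF2-treated tissue and 6 in control, and MACS2 called 6 covering 15.9 kb in FGF2-treated tissue and 8 covering 16.6 kb in control. By MACS2 the right cluster held most of the acetylated sequence of the window in either condition.

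**Figure D3:**
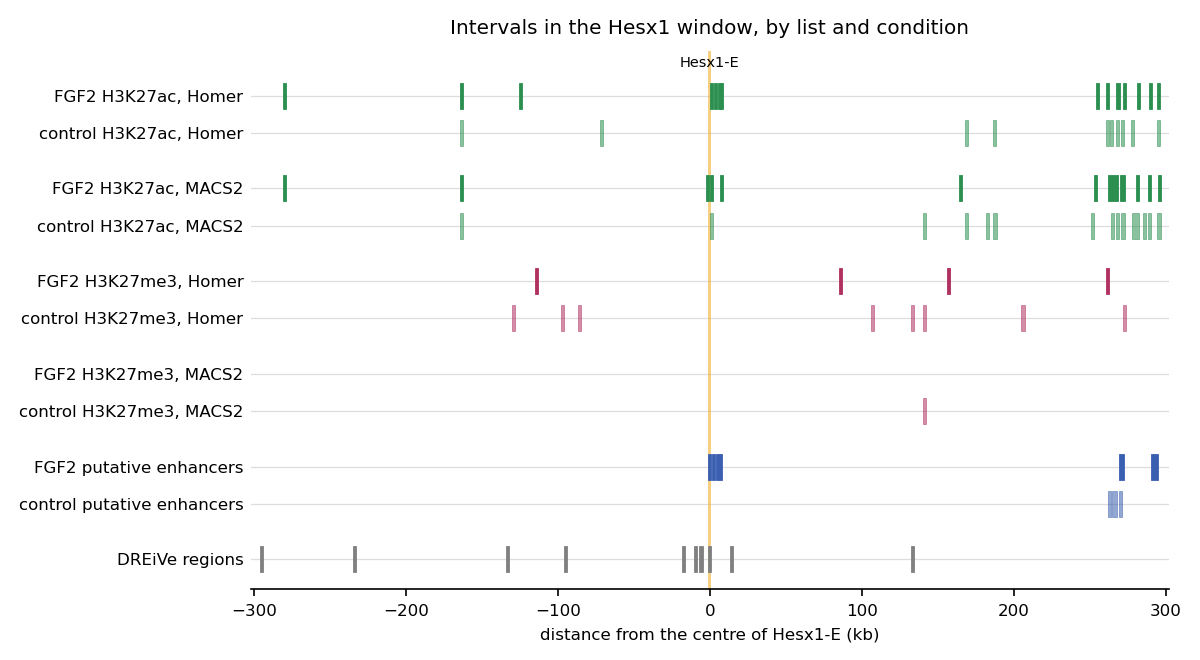
Rows show the intervals of each list over the window, FGF2-treated tissue above control, by distance in kb from the centre of Hesx1-E (orange line). Intervals are drawn at least 2 kb wide so that they can be seen. The cluster beside Hesx1-E has 4 Homer H3K27ac peaks and 4 putative enhancers in FGF2-treated tissue and 0 of either in control, and the H3K27me3 rows have 4 FGF2 and 8 control Homer peaks.

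The peaks beside Hesx1-E in FGF2-treated tissue formed a run of 4 by Homer, at 8577354-8578104, 8580172-8580922, 8582320-8583070 and 8583821-8584571, all on the right of the element and spanning 7.22 kb. Their gaps to the element were 473, 3291, 5439 and 6940 bp. The nearest control Homer peak lay 70.3 kb to the left of the element (8505292-8506042). Of the 14 Homer H3K27ac peaks of FGF2-treated tissue in the window 10 overlapped no control Homer peak, where the whole list has 64.4%. The number of such peaks is thus near the background, and these 4 stand out by their grouping and their distance from control Homer peaks. By MACS2 a control peak (8577442-8578595) overlapped the first of the 4, so the distance holds for Homer only. Their distances to the nearest control Homer peak were between 71.3 and 77.8 kb, against a median of 7.29 kb for all FGF2 Homer peaks without a control overlap, and between 5.53 and 6.49% of those peaks lay as far off. As the 4 are neighbours, their distances are not separate observations.

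Runs of this kind were counted over the genome by a rule written after the cluster was known, as FGF2 Homer peaks without overlap with a control Homer peak that follow each other within 3 kb. Of 21669 such runs 53 held 4 or more peaks (0.245%), and the one at Hesx1-E was the only one on chromosome 12. Only 3 of the 53 lay at least 50 kb from any control Homer peak, and this run was one of them, although a control MACS2 peak overlaps its first member. The cut-offs of 4 peaks and 50 kb were also set with this run known. Its place among the rare runs is therefore a description. The same count in the other direction gave 29 of 17617 runs of control peaks (0.165%), of which 0 lay as far from a Homer peak of FGF2-treated tissue.

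The callers gave different pictures of the control tissue at this place. MACS2 called a control peak of 1154 bp at 8577442-8578595, whose start lay 33 bp from that of the MACS2 peak of FGF2-treated tissue (8577409-8578172, 764 bp). H3K27ac on the right flank of Hesx1-E was therefore called in both conditions by MACS2, with gaps to the element of 528 bp in FGF2-treated tissue and 561 bp in control. Over the whole FGF2 MACS2 list 41.7% of peaks overlapped no control MACS2 peak. Present in FGF2-treated tissue and not in control by MACS2 were a peak of 311 bp on the left flank (8575100-8575410, 955 bp from the element) and one of 381 bp at 8584060-8584440, 7.18 kb to the right. The first lay 2.03 kb from the nearest control MACS2 peak, and 77.6% of FGF2 MACS2 peaks without overlap lay as far off. For the second peak these values were 5.46 kb and 51.8%, so neither distance was unusual. The last of the 4 Homer peaks of FGF2-treated tissue overlaps that second peak, so acetylation there was called by both callers in FGF2-treated tissue and by neither in control. The 2 middle Homer peaks were called by Homer alone. In the Homer list the peak next to the element stood at place 2796 of 37405 (7.47% down), the first of the window's 14, and the last of the run stood at 21.6%. The 2 middle ones stood at 75.3 and 66.9%.

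Both flanks of Hesx1-E were thus acetylated in FGF2-treated tissue by MACS2, and the right flank alone in control. The MACS2 gap between the flanks in FGF2-treated tissue, 8575411-8577408 (1998 bp), contains the whole element. In control the stretch without H3K27ac that holds the element ran from 8413850 to 8577441 by MACS2 (164 kb, with 2.11% of stretches as long), and from 8506043 to 8745192 by Homer (239 kb, 1.73%). In FGF2-treated tissue the Homer stretch that holds the element ran from 8452554 to 8577353 (125 kb, 4.01%). These shares too count stretches and not sequence, so a given point lies in such a stretch more often than they say.

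**Figure D4:**
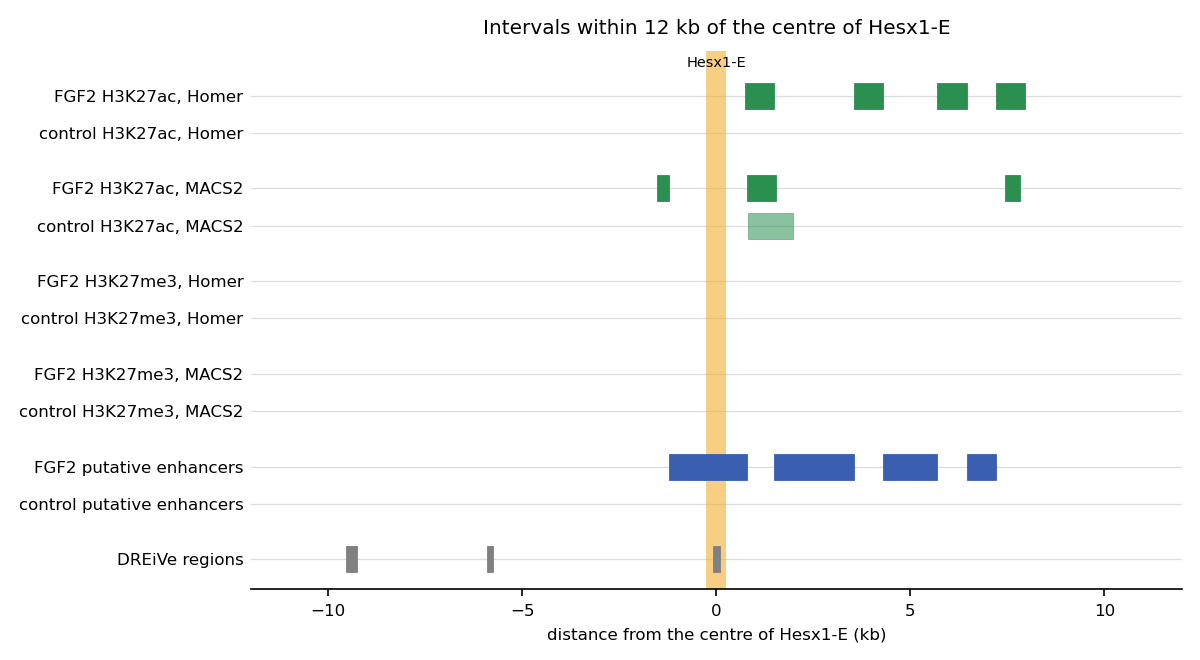
The same lists within 12 kb of the centre of Hesx1-E (orange), drawn to scale in kb with FGF2-treated tissue above control. In FGF2-treated tissue 4 Homer H3K27ac peaks lie to the right, MACS2 peaks stand on both flanks, and 4 putative enhancers follow each other from the element on, while in control the only interval is the MACS2 peak of 1154 bp.

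The authors defined putative enhancers as gaps between neighbouring H3K27ac peaks that are free of H3K27me3. The deposited lists, which were used here, hold 12198 entries for FGF2-treated tissue and 10674 for control. That is more than the paper counts in either condition, so shares over these lists do not describe its published set. Why they differ was not examined. The window held 6 in FGF2-treated tissue and 3 in control, covering 14.5 and 7.65 kb. Windows with more enhancers in FGF2-treated tissue made up 48.4% of the genome, and 25.2% had a difference of 3 or more. In FGF2-treated tissue 4 of the 6 lay at Hesx1-E, at 8575393-8577407, 8578105-8580171, 8580923-8582319 and 8583071-8583820, and the nearest control enhancer was 262 kb from the element. The other 2 of FGF2-treated tissue (8845426-8849137 and 8866858-8871376) and all 3 of control (8838681-8840290, 8841042-8844649 and 8845401-8847829) lay in the right cluster. Of the 6, 5 overlapped no control enhancer (63.8% over the whole list), and of the 3 in control 2 overlapped none of FGF2-treated tissue (58.7%). The shared pair was 8845426-8849137 in FGF2-treated tissue and 8845401-8847829 in control.

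The entry that contains Hesx1-E (2015 bp) was unlike the others. Of 12198 enhancers of FGF2-treated tissue 12191 are exactly the gap between neighbouring Homer H3K27ac peaks, as are 10670 of 10674 in control, and this is one of the 7 exceptions. It overlapped the Homer peak on its right by 54 bp, and the nearest Homer peak on its left was 122839 bp away. Its ends lay instead 18 bp inside the left MACS2 peak and 1 bp short of the right one. Its left end thus falls on the MACS2 peak of 311 bp, which Homer did not call. The other 8 enhancers of the window were exact Homer gaps. Of all 9, 3 were wider than 3 kb, the limit in the authors' definition, with 3712 and 4519 bp in FGF2-treated tissue and 3608 bp in control. When the gaps were derived anew from Homer peaks with that limit, 3 remained in FGF2-treated tissue and 2 in control. The 3 lay beside Hesx1-E and did not contain it, and the 2 lay in the right cluster. Derived from MACS2 peaks, there were 2 in FGF2-treated tissue, 1 of them around Hesx1-E, and 3 in control, all in the right cluster. Beside or around Hesx1-E each of these 3 versions had an enhancer in FGF2-treated tissue and none in control. They are not separate observations. The deposited entries there are the 3 gaps derived from Homer peaks and the entry that contains the element, whose ends nearly match those of the MACS2 gap. Only the deposited list and the MACS2 version had one that contains the element. The nearest gap derived from Homer peaks, 8578105-8580171, lay 1224 bp from it.

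In the right cluster 3 of the 7 Homer H3K27ac peaks of FGF2-treated tissue and 3 of the 6 of control overlapped a peak of the other condition. Homer peaks at 8837922-8838672, 8844675-8845425 and 8871377-8872127 in FGF2-treated tissue had control partners at 8837930-8838680, 8844650-8845400 and 8871417-8872167, with starts 8, 25 and 40 bp apart. Another pair stood alone, 162 kb to the left of the element, at 8413159-8413909 in FGF2-treated tissue and 8413198-8413948 in control, 39 bp apart, and MACS2 called it in both conditions. Together these 4 pairs were all the Homer H3K27ac peaks of the window shared between conditions, 4 of 14 in FGF2-treated tissue and 4 of 10 in control, where 6 of 10 overlapped no FGF2 peak (59.3% over the whole list). The unpaired Homer peaks of FGF2-treated tissue in the right cluster lay between 0.557 and 6.17 kb from a control Homer peak, unlike the run at Hesx1-E. By MACS2 a broad peak of FGF2-treated tissue (8838355-8845032, 6678 bp) spanned the ground of 2 control peaks of 2306 and 1042 bp (8840434-8842739 and 8843991-8845032), with the same right end. A control peak of 4147 bp (8854455-8858601) ended 1 bp short of one of 1164 bp in FGF2-treated tissue (8857439-8858602). By MACS2 5 of 12 peaks of FGF2-treated tissue in the window overlapped no control peak, against a background of 41.7%, and 6 of 14 in control overlapped none of FGF2-treated tissue, against 57.4%.

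Some single H3K27ac peaks outside the clusters were seen in 1 condition by both callers. In FGF2-treated tissue this was the peak at 8296604-8297354, 279 kb to the left of the element and 116 kb from any control Homer peak, a distance that 2.80% of FGF2 peaks without overlap reach. In control these were the peaks at 8745193-8745943 and 8763732-8764482, 85.1 and 66.5 kb from any Homer peak of FGF2-treated tissue, and the second was the first of the window's control peaks in the Homer list (22.4% down). By MACS2 FGF2-treated tissue had a peak of 412 bp (8741518-8741929), 3.45 kb from the control MACS2 peak at the first of them. How many control peaks without overlap lie as far from FGF2 peaks over the whole list was not counted. Over the whole Homer lists 64.4% of FGF2 peaks and 59.3% of control peaks overlapped none of the other condition. Single peaks called by Homer alone stood at 8451803-8452553 in FGF2-treated tissue and 8505292-8506042 in control. Single control peaks called by MACS2 alone stood at 8716991-8718088 and at 8758588-8759245 (658 bp), 140 and 182 kb to the right of the element. Over the window MACS2 also called 10 of the 14 Homer peaks of FGF2-treated tissue (59.1% over the whole list) and 8 of the 10 of control (70.7%).

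The marks met at few places, in a window with few H3K27me3 peaks to meet (by Homer 4 in FGF2-treated tissue and 8 in control). By Homer 1 of 14 H3K27ac peaks in FGF2-treated tissue overlapped an H3K27me3 peak of the same tissue, against 17.4% over the list, and 0 of 10 did in control, against 8.84%. The one was 8837922-8838672, which shared 604 bp with the H3K27me3 peak at 8838069-8838819. That H3K27ac peak was present in control too, where no H3K27me3 peak covered it. By MACS2 none of the 12 in FGF2-treated tissue could do so, as the window held 0 H3K27me3 peaks there (16.6% over the list). In control 1 of 14 did (0.858%). The one was 8716991-8718088, 140 kb to the right of the element, whose H3K27me3 peak of 359 bp lay wholly inside it and which had no counterpart of either mark in FGF2-treated tissue. At 8849138-8849888 an H3K27ac Homer peak of FGF2-treated tissue shared 491 bp with a control H3K27me3 peak at 8848878-8849628. Across callers, that control H3K27me3 peak also shared 611 bp with a control MACS2 H3K27ac peak (8847111-8849488), so the place carried H3K27ac by MACS2 in both conditions. No list had an H3K27me3 peak within 85 kb of Hesx1-E, so the marks could not meet there. As each library is a pool, both marks at 1 place may come from different cells.

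Conserved regions lay in and near the element, on which the window is centred. The DREiVe list, conserved regions predicted from sequence and so the same for both conditions, had 19 entries in the window, which joined into 10 regions. By its name the list was made for FGF response genes, so it does not describe conservation over the whole genome. Of the 10 regions, 3 lay within 10 kb and 5 within 20 kb of Hesx1-E. How many lie as near to other points was not counted, and whether conservation entered the choice of the element was not examined. The region 8576527-8576721 (195 bp) lay inside the element, its centre within 1 bp of the element's. The others near it were 8558968-8559131, 8567084-8567356 and 8570708-8570869 on the left and 8590513-8590789 on the right, none of them inside the acetylated run. In FGF2-treated tissue the region inside the element was the only 1 of 10 to overlap an H3K27ac peak or putative enhancer (7.3% over all 356 regions), and in control 0 of 10 did (4.21%). It was covered by the enhancer and not by a peak, with H3K27ac 632 bp away by Homer and 687 bp by MACS2 in FGF2-treated tissue, against 70.5 kb by Homer and 720 bp by MACS2 in control. The study picked its cloned elements among regions flanked by H3K27ac. An enhancer over the region inside the element is therefore not a separate observation. Farther out, 8709949-8710033 lay inside the control H3K27me3 peak at 8709324-8710074, and the FGF2 list had none within 22 kb of it. The remaining 4 regions, at 8281786-8281961, 8342625-8342706, 8443068-8443387 and 8481672-8481820, lay farther to the left of the element and overlapped no peak of either mark. The list of predicted AP1 sites, made by its name for the same genes, has 1370 sites after joining and 0 on chromosome 12, so AP1 sites were not analysed here.

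Windows of the same size were taken around 3 other elements that the study cloned, and in FGF2-treated tissue they held more Homer peaks of both marks than the Hesx1 window. By Homer, H3K27ac peaks in FGF2-treated tissue and control numbered 54 and 8 around Spry1-E, beside the gene of an FGF feedback inhibitor, 45 and 19 around Foxi3-E1, beside that of a forkhead factor of placode progenitors, and 37 and 33 around Cxcl14-E, beside that of a chemokine. H3K27me3 Homer peaks in FGF2-treated tissue and control numbered 9 and 17 around Spry1-E, 35 and 24 around Foxi3-E1, and 27 and 24 around Cxcl14-E, against 4 and 8 around Hesx1-E. By Homer the Hesx1 and Spry1 windows thus had fewer H3K27me3 peaks in FGF2-treated tissue, and the other 2 had more. By MACS2, H3K27me3 peaks in FGF2-treated tissue and control numbered 3 and 2 around Spry1-E, 29 and 3 around Foxi3-E1, and 19 and 5 around Cxcl14-E, against 0 and 1 around Hesx1-E. The FGF2 list of MACS2 is 23.7 times as long as the control list over the same sequence. These small counts therefore do not set Hesx1 apart from Spry1. H3K27ac peaks by MACS2 numbered 46 and 14 around Spry1-E, 31 and 44 around Foxi3-E1, and 27 and 41 around Cxcl14-E, which turns the direction round at Foxi3-E1 and Cxcl14-E, as at Hesx1-E (12 and 14). Over the genome 6.96% of windows had both more H3K27ac and fewer H3K27me3 Homer peaks in FGF2-treated tissue, and 1.57% had both differences as large as at Hesx1. The windows that cover the Hesx1 locus are counted in both shares, and the second share uses the Hesx1 window's own differences as its limits. The control Homer peak nearest to the element lay 70.3 kb away at Hesx1-E, 40.3 kb at Spry1-E, 5.16 kb at Foxi3-E1 and 1.95 kb at Cxcl14-E, but by MACS2 these distances were 0.561, 3.60, 1.27 and 0.576 kb.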

How the data were processed

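Nano-ChIP-seq libraries for H3K27ac and H3K27me3, 1 per condition and mark, were trimmed, aligned to galGal4 with Novoalign and reduced to unique alignments by the authors, who called peaks with Homer and MACS2 against an input library. The deposited files hold start and end positions and no read numbers, so depth and the precision it gives are unknown. Neither reads nor peak heights entered the comparisons. The lists named for Homer enhancers repeat the Homer H3K27ac peaks and were not used. The condition of the putative enhancer lists is given by their names only, and their edges match the Homer peaks of the same condition.

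Samples were grouped by the treatment in their titles and culture conditions. The labels disagree in 1 field, as the source names of the treated H3K27me3 and input libraries give other FGF numbers in the added factor, and these libraries were taken as FGF2. All coordinates are galGal4, counted from 1. Overlap required 1 bp. MACS2 positions from 100 Mb on are rounded in the control lists (4432 H3K27ac and 174 H3K27me3 peaks on chromosomes 1, 2 and 3), so these stretches were left out in both conditions for MACS2, and 477 blank rows of the control MACS2 H3K27me3 list were skipped. Shares over the whole genome are descriptions of these lists. Enhancers were also derived anew, by joining H3K27ac peaks no more than 3 kb apart and keeping the gap if H3K27me3 did not touch it. These steps were checked first with simulated intervals. Python 3.11.15, numpy 2.4.6 and matplotlib 3.10.9 were used. Intervals named with positions are every putative enhancer, every conserved region, every peak near Hesx1-E, peaks with both marks, peaks of both callers that bear on a comparison, and all H3K27me3 Homer peaks, the last and the other single H3K27ac peaks added after their positions were seen. The counts of runs, stretches and list places were likewise added after the lists were seen. Alternatives covered the caller, the window, the overlap, the gap and the enhancer rule. The window, the element and the lists were chosen with earlier results of these data known.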

Additional observations from a re-analysis of the deposited data

How the results depend on the processing

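No paired analysis was possible because there is 1 library per condition and mark, and no replicate could be left out for the same reason. Of 38 alternatives 18 left the count, or the FGF2 minus control difference, within 1.5 times its reported value in the same direction, 17 moved it further and 3 turned it round. The H3K27ac difference in the window (4) was -2 by MACS2, 2 for Homer peaks that MACS2 also called, 2 with 200 kb and 7 with 500 kb on each side. The H3K27me3 difference (-4) was -1 by MACS2 and within 100 kb and -9 within 500 kb, so its direction held in all 5 alternatives. These are not independent, as the windows are nested and every peak already lay wholly inside. By MACS2 the difference rested on 0 peaks against 1. The enhancer difference (3) was 5 within 500 kb, 1 for derived gaps of up to 3 kb, up to 2 kb and up to 3 kb without leaving out H3K27me3, and -1 for derived gaps between MACS2 peaks. FGF2 H3K27ac peaks without control overlap (10) were 5 by MACS2, and such enhancers (5) were 3 among gaps derived from Homer and 1 from MACS2. The difference in H3K27ac peaks with H3K27me3 (1) was -1 by MACS2 and 0 when peaks up to 500 bp apart counted. By MACS2 the window held 0 H3K27me3 peaks in FGF2-treated tissue, so no H3K27ac peak there could carry both marks. The difference in marked DREiVe regions (1) was 0 with H3K27ac peaks alone. The difference within 10 kb of Hesx1-E (4) was 2 by MACS2 and 2 within 5 kb. The cause of these changes was not tested.

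The lists carry no depth, so whether a peak absent from 1 condition lies just under the caller's threshold was not tested. On the right flank of Hesx1-E the control peak was called by MACS2 and not by Homer. The MACS2 H3K27me3 lists differ in length by 23.7 times over the same sequence (21873 peaks in FGF2-treated tissue and 923 in control), which limits what their 0 and 1 peaks at Hesx1 can be compared on. Counts in a window depend on its edges, and the right cluster lies at one of them.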
